A study of Homo sapiens with 6 samples.

Results

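The zinc finger genes of 19p12 are a block of 35 named genes on chromosome 19 (19710471 to 24129961, GRCh38), taken here by their symbols and chosen by their changes in this same comparison. Of these, 31 had a row in the authors' deposited gene table of 20115 genes and 4 had a row in the authors' deposited table of 2014 downstream-of-gene (DoG) regions, which hold transcription that runs on past a gene's end. ZNF66, ZNF98, ZNF492 and ZNF724 had no gene row under these symbols. The RNA came from MDA-MB-231 cells, a human line from a triple-negative breast cancer, in 2 groups of 3 libraries: UBE3D KD cells, carrying lentiviral short hairpins to UBE3D switched on by doxycycline, and control cells of the same line. The labels do not give the hairpin or the doxycycline status of the control, and they mark every sample as pooled. The tables hold 1 comparison, knockdown over control, with no value per library, so the spread over libraries is seen only through the standard error (SE) and the authors' adjusted p-value, and sequencing depth is unknown. Nothing in the labels says that libraries came from separate cultures, so these p-values measure the spread between libraries, which may be technical.

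Most proteins of this block carry an N-terminal KRAB domain followed by a run of C2H2 zinc fingers, each a short fold that holds a zinc ion and reads a few bases of DNA. The KRAB domain recruits the co-repressor TRIM28, which brings in the histone methyltransferase SETDB1 and heterochromatin proteins, and many such proteins are known to silence retroelements. The block arose by tandem duplication in primates, so its genes resemble each other in sequence and structure. By the GENCODE 29 coding transcript with most fingers, 34 of the 35 genes encode at least 8 C2H2 fingers. The median was 13 and the highest number 36, in ZNF208. A KRAB-like stretch was found by a simple residue pattern in a coding transcript of 31 of 35 genes. ZNF738 stands apart, with an annotated protein of 137 residues and no finger that matched the pattern. The genes lie on both strands, 18 on the plus and 17 on the minus strand.

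The promoters of the block are shown first, because most of its genes share words there. Below are the 180 bases before the RefSeq start site (GRCh38.p14) of 3 genes with higher RNA in the knockdown, ZNF431 (chr19:21141860-21142039, plus strand), ZNF714 (chr19:21082023-21082202, plus strand) and ZNF91 (chr19:23395472-23395651, minus strand), of 1 low-level gene that did not pass the test, ZNF208 (chr19:22010944-22011123, minus strand), and of ZNF14 (chr19:19733113-19733292, minus strand), the least like them. Capitals mark 3 words in the direction of the gene, TGTCACTC, TCCAATCAGG, which holds a CCAAT box, and CTTCCGG, which holds the core of sites for ETS factors. The words do not overlap each other.
ZNF431: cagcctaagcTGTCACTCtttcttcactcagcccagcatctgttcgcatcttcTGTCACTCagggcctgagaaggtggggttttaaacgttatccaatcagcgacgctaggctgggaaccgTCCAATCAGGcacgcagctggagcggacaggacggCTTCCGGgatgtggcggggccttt
ZNF714: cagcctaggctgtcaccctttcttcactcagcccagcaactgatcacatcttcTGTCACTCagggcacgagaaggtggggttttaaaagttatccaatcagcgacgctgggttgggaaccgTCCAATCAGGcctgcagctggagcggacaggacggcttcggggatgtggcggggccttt
ZNF91: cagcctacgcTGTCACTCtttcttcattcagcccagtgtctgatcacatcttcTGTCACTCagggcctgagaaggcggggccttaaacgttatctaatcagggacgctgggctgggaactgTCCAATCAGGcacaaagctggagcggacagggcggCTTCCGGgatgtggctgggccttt
ZNF208: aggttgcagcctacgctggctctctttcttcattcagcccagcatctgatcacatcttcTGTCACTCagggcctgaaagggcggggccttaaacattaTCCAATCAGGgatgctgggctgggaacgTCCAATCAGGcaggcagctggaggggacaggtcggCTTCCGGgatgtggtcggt
ZNF14: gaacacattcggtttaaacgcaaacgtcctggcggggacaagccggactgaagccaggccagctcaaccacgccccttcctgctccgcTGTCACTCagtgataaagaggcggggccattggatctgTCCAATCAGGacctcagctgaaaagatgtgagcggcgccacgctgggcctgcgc
The first 2 are the commonest words of 8 and 10 bases in the block's own promoters that share no 6 bases, and the third was picked after these promoters were read, so the counts describe the block and test nothing. Searched on both strands of the RefSeq windows, which run from 250 bases before to 50 bases after the start, TCCAATCAGG or its reverse complement was present in 25 of 28 windows of 27 members, against 0.347% of all 35116 promoter windows. TGTCACTC was present in 25 of 28 windows, against 1.30% of all windows. CTTCCGG was in 21 of 28, against 10.3% of all windows. Windows of other C2H2 genes, 769 in number, held the words more often than all windows did. The shares there were 3.90% for TCCAATCAGG, 3.64% for TGTCACTC and 25.5% for CTTCCGG. Over the 250 bases before the start, the other 27 member windows matched that of ZNF431 at a median of 82.4% of bases, with 92.0% for ZNF714 and 51.2% for ZNF14. Among listed members with a window, TCCAATCAGG was present for 19 of 20 raised and 3 of 4 that did not pass. For TGTCACTC it was 18 of 20 raised and 4 of 4 that did not pass, and for CTTCCGG 14 of 20 raised and 4 of 4 that did not pass. The 4 that did not pass, ZNF208, ZNF257, ZNF730 and ZNF726, are scarce, with means of 9.15 to 27.6 normalized counts. ZNF506 and ZNF253, more abundant genes that did not pass, and the raised ZNF738 had no window and are not in these counts.

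**Figure D1:**
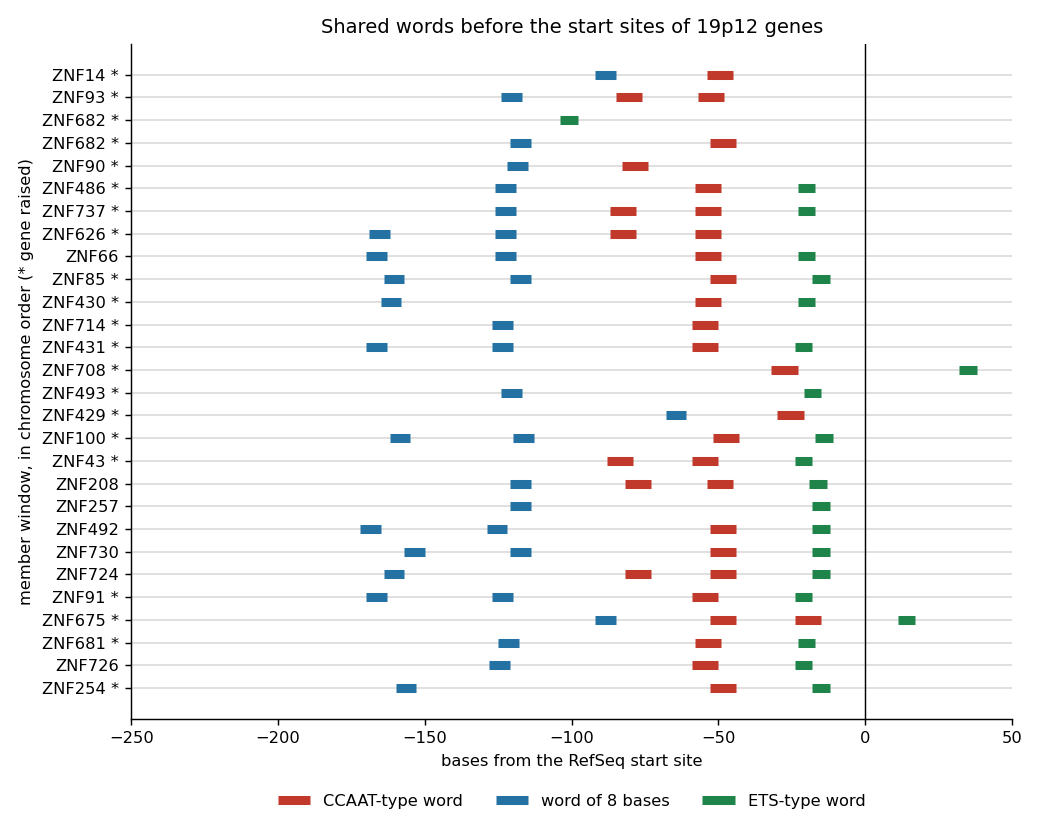
Position of the shared words in each RefSeq promoter window of a member, in bases from the start site. Red marks the word with the CCAAT box, blue the word of 8 bases and green the word with the ETS core. Rows run along the chromosome and an asterisk marks a gene raised in the knockdown. Most windows hold the words before the start site, while single windows lack a word or hold it elsewhere, such as those of ZNF708 and ZNF257.

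In the knockdown the RNA of most of these genes was higher. At an adjusted p under 0.05, 21 of the 31 listed members were raised and none was lowered in the authors' deposited table, against a background of 4.62% of all genes raised and 7.93% lowered. The members were chosen with values of this comparison in view, so nothing is read from that count beyond the description. The median log2 fold change of the 31 members was 0.53, against -0.03 over all genes, and 3 members were at least 2-fold higher. Every log2 fold change here is the authors' value, which shrinkage has moved toward 0. UBE3D was lower, with a log2 fold change of -0.80 (adjusted p = 0.00632, SE 0.37) in the authors' deposited table, a call lost in a Wald test on the shrunken values (adjusted p = 0.295).

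**Figure D2:**
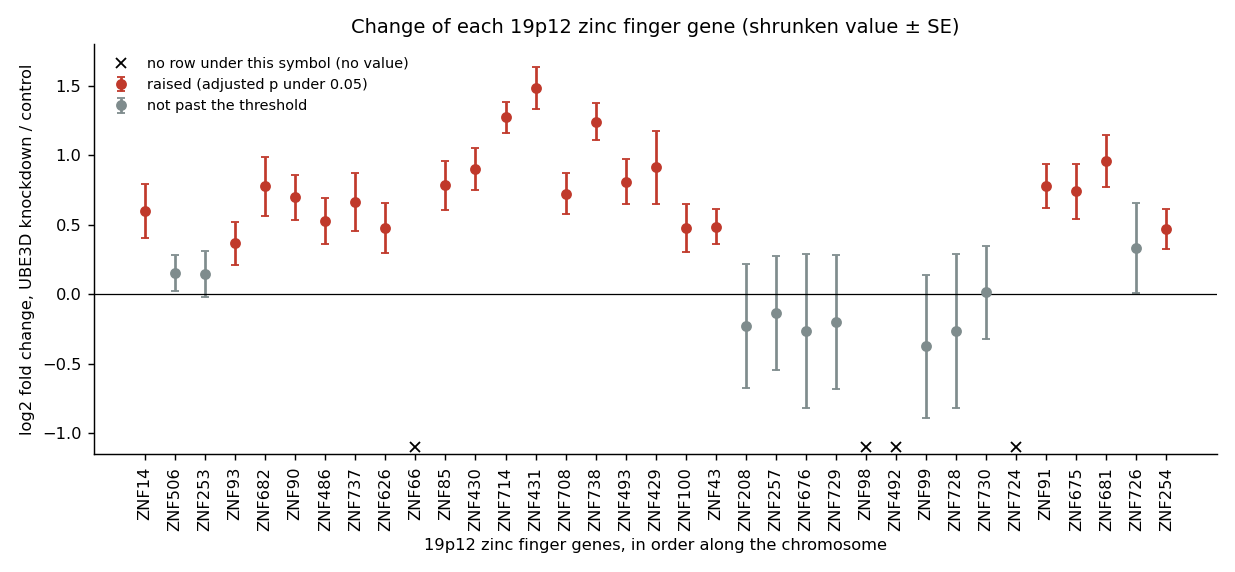
Log2 fold change, knockdown over control, of each 19p12 zinc finger gene in order along the chromosome, with the SE as bars. Red points passed the adjusted p threshold of 0.05, grey points did not and crosses mark 4 symbols without a row. The highest value, 1.48, belongs to ZNF431, and the 7 grey points in the middle lie between -0.38 and 0.014.

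The 3 largest rises lay close together, while the next, that of ZNF681 (log2 fold change 0.96), lay toward the centromeric edge. ZNF431 was 2.79-fold higher, with a log2 fold change of 1.48 (adjusted p = 6.80e-22, SE 0.15) with 369 normalized counts on average, by the authors' deposited table. Its neighbour ZNF714, which starts 22.1 kb past the end of ZNF430 and ends 16.8 kb before ZNF431 on the same strand, was 2.41-fold higher (log2 fold change 1.27, adjusted p = 1.50e-28, SE 0.11) at a mean of 626 in the authors' deposited table. The proteins of this pair are 84.3% identical, the closest match of each within the block. ZNF738, the gene without annotated fingers, followed with a log2 fold change of 1.24 (adjusted p = 1.84e-19, SE 0.14) in the authors' deposited table. The run from ZNF430 to ZNF429, picked with the values in view, held these 3 genes and 4 other raised members. Among those 4, ZNF429 had a log2 fold change of 0.91 (adjusted p = 0.000198, SE 0.26) and ZNF430 one of 0.90 (adjusted p = 5.47e-09, SE 0.15) in the authors' deposited table. ZNF493 was at 0.81 (adjusted p = 9.58e-07, SE 0.16) and ZNF708, the one gene of the run on the minus strand, at 0.72 (adjusted p = 2.19e-06, SE 0.15) in the authors' deposited table. Raised members were split evenly over the strands, with 11 of 16 listed on the plus and 10 of 15 on the minus strand.

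Members with a known role were also among the raised genes. ZNF91, known in human embryonic stem cells for silencing SVA retroelements, was 1.72-fold higher, with a log2 fold change of 0.78 (adjusted p = 1.25e-06, SE 0.16) in the authors' deposited table. It had the highest mean of the block, 800.0 normalized counts. Per kilobase of exon, ZNF714 (77.9), ZNF91 (76.9) and ZNF738 (67.3) had the highest mean normalized counts, and the next, ZNF486, had 43.1. ZNF93, known for silencing a group of L1 elements in the same cells, had a smaller log2 fold change of 0.37 (adjusted p = 0.0166, SE 0.16) in the authors' deposited table. This was the smallest rise that passed, and the call was lost in the Wald test on shrunken values, as were those of ZNF626 and ZNF100. ZNF675, also called TIZ and known as an inhibitor of signalling through TRAF6, was at 0.74 (adjusted p = 0.000126, SE 0.20) in the authors' deposited table. Retroelement RNA itself is not analysed here.

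The remaining raised members are zinc finger genes for which no single role is given here. ZNF681, next to ZNF675 and its closest match by protein (76.1% identity), had a log2 fold change of 0.96 (adjusted p = 2.97e-07, SE 0.19) in the authors' deposited table. ZNF85 was at 0.78 (adjusted p = 1.15e-05, SE 0.18) and ZNF682 at 0.78 (adjusted p = 0.000168, SE 0.21) in the authors' deposited table. ZNF90 had 0.70 (adjusted p = 1.83e-05, SE 0.16) and ZNF737 had 0.66 (adjusted p = 0.000912, SE 0.21) in the authors' deposited table. All 5 rose by more than the median member, at means of 70.3 to 182 normalized counts. ZNF14, at the outer edge, had 0.60 (adjusted p = 0.00124, SE 0.19) in the authors' deposited table, and its protein was the least like the others, at most 51.1% identical to any. ZNF486 was at 0.53 (adjusted p = 0.000956, SE 0.16), ZNF43 at 0.48 (adjusted p = 0.000131, SE 0.13) and ZNF626 at 0.48 (adjusted p = 0.00511, SE 0.18) in the authors' deposited table. ZNF100 had 0.48 (adjusted p = 0.00420, SE 0.17) and ZNF254, at the centromeric edge, 0.47 (adjusted p = 0.000934, SE 0.14) in the authors' deposited table. These last 5 values span 0.47 to 0.53, a smaller span than any of their SEs, which were 0.13 to 0.18.

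The 10 listed members that did not pass fall into abundant and scarce ones. ZNF506 averaged 228 normalized counts and had a log2 fold change of 0.15 (adjusted p = 0.344, SE 0.13) in the authors' deposited table. ZNF253, its neighbour, whose closest protein match in the block is ZNF506 (78.6% identity), was at 0.15 (adjusted p = 0.429, SE 0.17) and a mean of 78.4 in the authors' deposited table. These 2 genes are adjacent, and their levels lie within the range of the raised members (70.3 to 800.0). The other 8 had means of 9.15 to 27.6 and SEs of 0.32 to 0.55. ZNF726, the highest of them, had a log2 fold change of 0.33 (adjusted p = 0.165, SE 0.32) and ZNF99, the lowest, -0.38 (adjusted p = 0.139, SE 0.52) in the authors' deposited table. ZNF208, with 36 fingers the longest array of the block, was at -0.23 (adjusted p = 0.268, SE 0.44) in the authors' deposited table. ZNF728 (-0.26), ZNF676 (-0.26), ZNF729 (-0.20), ZNF257 (-0.14) and ZNF730 (0.014) had SEs of 0.34 to 0.55 in the authors' deposited table. The smallest change that could have passed in these 8 genes was not tested.

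Level and place went together among the listed members. Along the chromosome the first stretch, ZNF14 to ZNF43, had 17 of 19 listed members raised, the middle, ZNF208 to ZNF724, none of 7, and the last, ZNF91 to ZNF254, 4 of 5. The stretches were drawn after the values were seen. All 7 listed genes of the middle had means of 27.6 or less, and 3 of the 4 symbols without a row, ZNF98, ZNF492 and ZNF724, also lie there. ZNF724 does have a row under its older symbol ZNF724P, which is not counted here. That row had a higher mean, 75.8, and a log2 fold change of 0.36 (adjusted p = 0.0672, SE 0.22) in the authors' deposited table. At a mean of at least 50 normalized counts, all 23 listed members lay above 0 and 21 were raised, with a median log2 fold change of 0.72. This boundary was not planned, and it falls in a gap of the listed members, between means of 27.6 and 70.3. Below 50, 2 of 8 members lay above 0, beside 32.8% of all genes of that level. Across the 31 members the Spearman correlation of log2 fold change with the mean was 0.62, and among the 23 abundant ones 0.14. These correlations describe genes that share libraries, and the first also carries the stronger shrinkage of scarce genes.

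**Figure D3:**
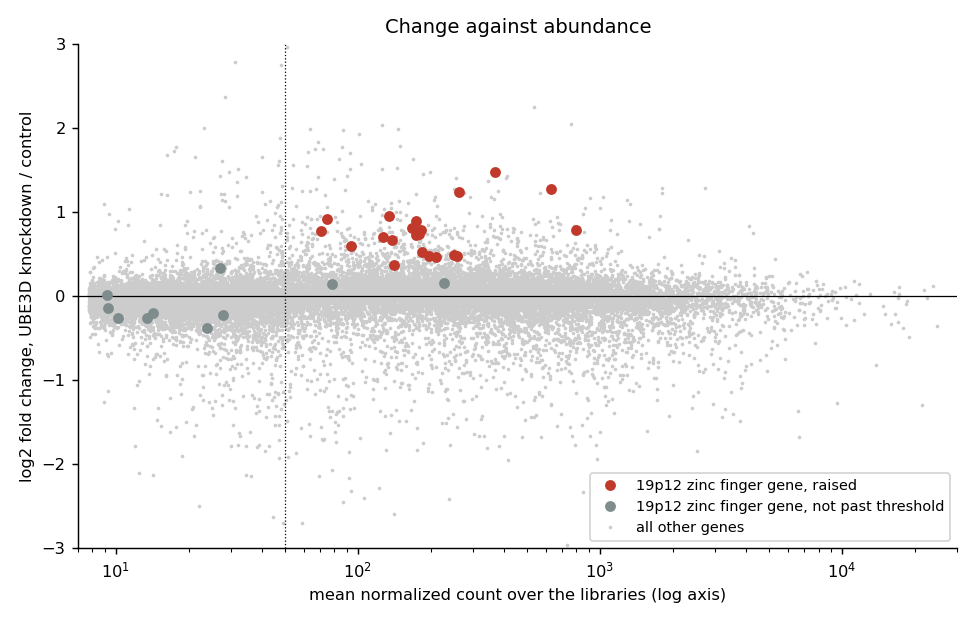
Log2 fold change, knockdown over control, against the mean normalized count (log axis) for all genes (light grey) and for 19p12 zinc finger genes that were raised (red) or not past the threshold (dark grey). The dotted line marks a mean of 50, to the right of which all 23 members lie above 0, and genes beyond 3 log2 units either way or outside the mean range shown are not drawn.

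The same counts were made for other zinc finger genes of the genome. Of 232 other genes of chromosome 19 that encode at least 3 C2H2 fingers, 50 were raised and 2 lowered, with a median log2 fold change of 0.15. Among those with a KRAB-like stretch it was 41 of 155 raised, at a median of 0.18. On other chromosomes 43 of 409 C2H2 genes were raised and 22 lowered, at a median of 0.04, and the 94 with a KRAB-like stretch had 24 raised and 1 lowered, at a median of 0.13. The 1062 genes of chromosome 19 not matched to at least 3 fingers, the member ZNF738 among them, had 53 raised and 42 lowered, at a median of 0.006. At the same unplanned boundary, a mean of at least 50, 91.3% of members and 26.1% of other chromosome 19 C2H2 genes were raised. So were 13.9% of C2H2 genes elsewhere and 7.19% of all genes. These are descriptions, and no test of the difference between the sets was made. The CCAAT-box word of the block's promoters was also found before 30 other C2H2 genes of the table, of which 10 were raised and none lowered (median log2 fold change 0.25). The 498 other C2H2 genes with a promoter window and without the word had 74 raised and 20 lowered (median 0.08). For TGTCACTC, 7 of 28 other C2H2 genes with the word were raised and 0 lowered, and 77 and 20 of 500 without it. For CTTCCGG the shares were close, with 31 of 185 raised with the word and 53 of 343 without it. These counts were not split by KRAB-like stretch, so a word's part in any difference cannot be told from that of the KRAB class. Another 35 genes that held the CCAAT-box word were not matched to at least 3 fingers, with 2 raised and 1 lowered (median -0.004). The highest of these was ZNF138, a gene with a zinc finger symbol, at 0.67 (adjusted p = 0.000152, SE 0.18) in the authors' deposited table.

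**Figure D4:**
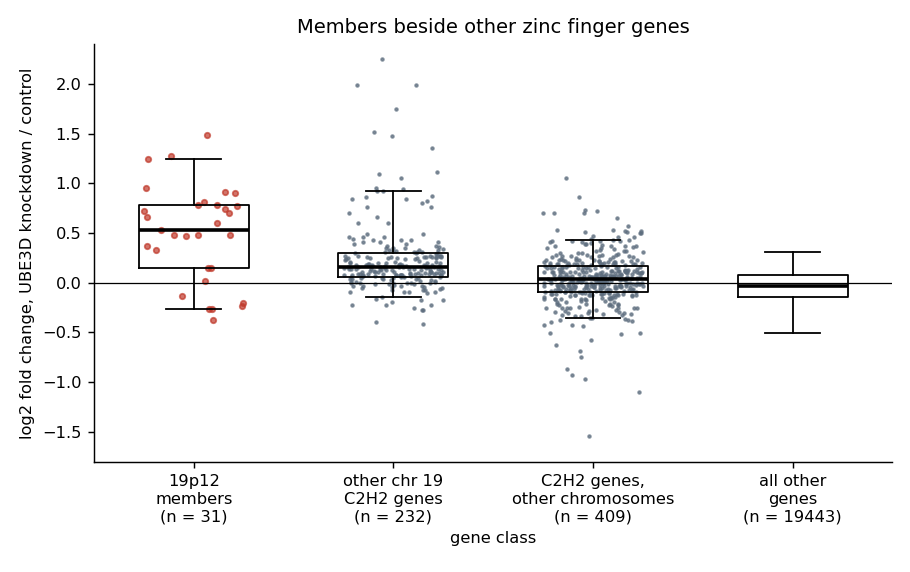
Log2 fold change, knockdown over control, of 31 members, 232 other C2H2 zinc finger genes of chromosome 19, 409 C2H2 genes of other chromosomes and all other genes. Points are genes (not drawn for the last class), boxes span the quartiles with the median as a thick line, and whiskers the 5th to 95th percentile. The member box lies above 0, and the median line steps down from 0.53 in members to 0.15 and 0.04 in the other zinc finger classes.

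Of 7 other genes inside the block with a row, 2 were raised and none lowered, against 4.62% of all genes raised and 7.93% lowered. Both flank ZNF91, and they are named here after their values were seen. LINC01224, a long noncoding RNA gene on the same strand upstream of ZNF91 (23399233 to 23416075), was 2.41-fold higher with a log2 fold change of 1.27 (adjusted p = 2.76e-16, SE 0.15) in the authors' deposited table. IPO5P1 (23259906 to 23274251), a pseudogene of an importin gene downstream of ZNF91 on the same strand, was at 0.78 (adjusted p = 2.49e-06, SE 0.16) in the authors' deposited table. The zinc finger pseudogene ZNF826P, also named after its value was seen, had a log2 fold change of 0.29 (adjusted p = 0.163, SE 0.23) in the authors' deposited table. RefSeq lists ZNF724P as an older symbol of ZNF724, and the row of that name was at 0.36 (adjusted p = 0.0672, SE 0.22) and a mean of 75.8 in the authors' deposited table. It is not counted among the 31.

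Because the genes are copies of each other, reads could be shared between them, and how the authors counted reads that map to several places is not given in the sources used here. Of all stretches of 75 bases, the read length, in the annotated transcripts of a raised member, a median of 0.379% also occurred exactly in a transcript of another gene, with a highest share of 7.96% in ZNF90 and 4.31% in ZNF626. For listed members that did not pass, the shares ran from 0.367% to 3.27%. Among the symbols without a row the shares were mostly higher. ZNF98 had 31.0%, ZNF492 24.5% and ZNF724, which has a row under its older symbol, 42.8%, while ZNF66 had 0.333%. The proteins of ZNF98 and ZNF492 are 97.9% identical, the closest pair of the block. The part of shared reads in the values of members was not tested.

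Correlations of the change with other features were weak among abundant members. Among the 23 abundant members the Spearman correlation of the log2 fold change was -0.003 with the number of fingers, 0.15 with the length of the 3' untranslated region (UTR), 0.19 with exon length and -0.25 with the share of repeated 75-base stretches. ZNF431 also has the longest annotated 3' UTR of the block, 12019 bases.

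Readthrough regions were listed for 4 members, and their log2 fold changes lay below those of the genes. The authors' deposited table holds DoG regions of ZNF431, ZNF714, ZNF91 and ZNF506, while 18 raised members had none. As a share, 12.9% of listed members had a region under their own name, against 8.94% of all genes. At a mean of at least 50 normalized counts, 4 of 23 members and 14.3% of all genes had one. Of the 4 regions, 2 were raised and none lowered, against a background of 12.7% of all regions raised and 16.1% lowered. The region of ZNF431 was 2.18-fold higher, with a log2 fold change of 1.13 (adjusted p = 1.87e-17, SE 0.13) in the authors' deposited table, and that of ZNF714 was at 0.46 (adjusted p = 0.0260, SE 0.25). This second call did not hold in a Wald test on the shrunken values or at an adjusted p under 0.01. The ZNF91 region, at 0.13 (adjusted p = 0.382, SE 0.13), and the ZNF506 region, at 0.04 (adjusted p = 0.827, SE 0.11), did not pass in the authors' deposited table. Region means were 1523 normalized counts for ZNF91, 396 for ZNF431, 285 for ZNF506 and 122 for ZNF714. The means of the genes were 800.0, 369, 228 and 626 in the same order, though region and gene counts may not share a scale.

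Set against their genes, all 4 regions had the lower log2 fold change. The members were chosen by the change of the gene, which is the value subtracted, so a difference below 0 is partly fixed by that choice. It is given as a description, and nothing is concluded from testing it. The difference, region minus gene, was -0.81 for ZNF714 (SE 0.27) and -0.65 for ZNF91 (SE 0.20), from the authors' deposited values. For ZNF431 it was -0.36 (SE 0.20) and for ZNF506 -0.11 (SE 0.17), also from the authors' deposited values. By an adjusted p under 0.05, the differences of ZNF714 and ZNF91 would be called, beside 4.62% of 1798 regions called below their gene and 8.68% in either direction, and nothing is read from that count. These SEs take the errors of region and gene as independent, though both come from the same libraries. Shrinkage also differed between regions and genes. The ratio of change to SE, relative to that implied by the p-value, had a median of 0.640 over genes and 0.827 over regions. The values subtracted may thus not share a scale. Of 141 regions of other raised genes, where the same choice acts, 115 lay below their gene, with a median difference of -0.29. By the annotation, the next coding, long intergenic noncoding or antisense gene on the strand of ZNF714 is ZNF431, 16.8 kb on. That of ZNF431 is ZNF738, 163 kb on. For ZNF91 it is AC092329.1, 30.8 kb on, and for ZNF506 it is LINC00663, 9.42 kb on. The raised IPO5P1, of another gene class, also lies downstream of ZNF91 on its strand. The files give no coordinates for the regions.

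**Figure D5:**
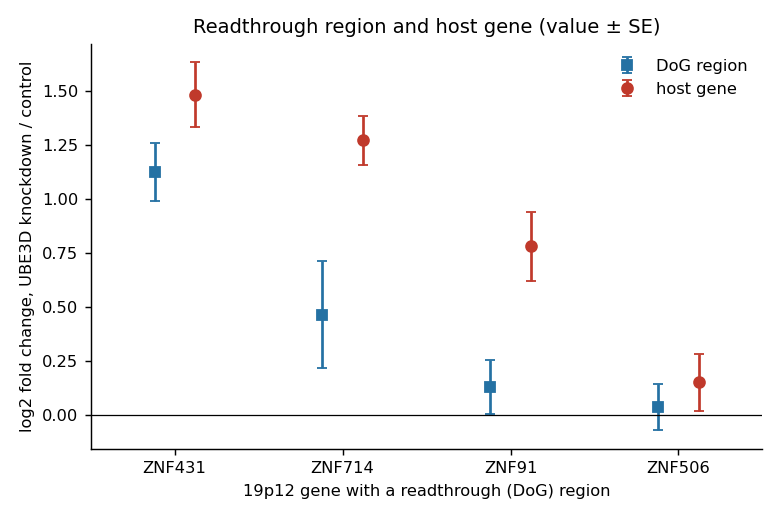
Log2 fold change, knockdown over control, of the readthrough region (blue squares) and of its host gene (red circles) for the 4 members with a region, with the SE as bars. The squares lie below the circles in all 4 pairs, by 0.81 for ZNF714 and 0.11 for ZNF506.

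Genes for the proteins through which KRAB zinc finger repressors work were called in both directions. Of 22 such genes, 2 were raised and 1 lowered, against a background of 4.62% of all genes raised and 7.93% lowered. Of these, CBX1, which encodes a heterochromatin protein (log2 fold change 0.51, adjusted p = 0.00871, SE 0.21), and FAM208A, which encodes the HUSH subunit TASOR (0.29, adjusted p = 0.0398, SE 0.13), were raised in the authors' deposited table. HDAC1, a histone deacetylase gene, was lowered (-0.37, adjusted p = 0.00841, SE 0.14) in the authors' deposited table. The other 19 did not pass, and the median of the list was 0.02, against -0.03 over all genes. TRIM28 and SETDB1, named for their role and outside the naming rule, were at 0.15 (adjusted p = 0.368, SE 0.13) and 0.04 (adjusted p = 0.811, SE 0.09) in the authors' deposited table. None of the 3 calls held in the Wald test on shrunken values.

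The cells carried the markers of the line. The 7 genes of mesenchymal MDA-MB-231 cells had means of 664 to 11376 normalized counts, while ESR1, PGR, FOXA1, GATA3 and CDH1 had 9.74 to 80.0. Of the 7, 5 were lowered in the authors' deposited table, with CAV1 (log2 fold change -1.68), TGFBI (-0.88), MSN (-0.62) and VIM (-0.34) among them, against 7.93% of all genes lowered. Of the 5 genes that the line holds low, CDH1 was raised (1.06) in the authors' deposited table, while ESR1 (-0.34), PGR (-0.29), GATA3 (-0.19) and FOXA1 (-0.17) did not pass there. Markers of the kidney line used to package virus summed to 830 normalized counts over 6 genes, with GATA2 raised (0.54) and L1CAM lowered (-0.28) in the authors' deposited table. Of that sum, L1CAM held 567 and GATA2 153, while PAX2, LHX1, SIX2 and NEFM had means of 14.4 to 55.3. Blood markers summed to 80.8 over the 3 of 4 that had a row, and markers of pluripotent cells, where genes of this block are known to be active, to 69.0 over 3 of 6. None of these 6 passed, and POU5F1 was at 0.04 (adjusted p = 0.872) and CD3E had -0.05 (adjusted p = 0.821), values of the authors' deposited table. The part of such cells in the change of the zinc finger genes was not tested.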

How the data were processed

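Ribosomal RNA was removed from total RNA of 3 UBE3D knockdown and 3 control samples, and stranded pairs of 75 bases were read, per the labels' protocols. Tools named in the submitters' processing notes are STAR 2.5.2b, cutadapt 1.8.1 and DESeq2, with the build hg38. No source used here gives the annotation, the counting or the calling of DoG regions. The authors' deposited tables hold, per the file headers, 1 row for each gene or region with the mean normalized count (signal), the log2 fold change and, as another unit, its SE. They also hold, per the file headers, the p-value before and after adjustment. Recomputing a Benjamini-Hochberg adjustment over the rows gave the deposited adjusted p-value. The log2 fold changes are shrunken: their ratio to the SE was smaller than the p-value implies in 20112 of 20115 gene rows and all 2014 region rows. Depth is unknown.

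Members and lists were chosen with earlier results of these data known. Calls use an adjusted p under 0.05. All listed members are named, and of other lists up to 4 genes that passed, with others where said. Positions, transcripts and UTRs come from GENCODE 29, matched by symbol for 35 of 35 members, and promoters from RefSeq (GRCh38.p14). Biopython 1.88 translated and aligned the proteins. Region and gene were compared by their difference over the root of the summed squared SEs, with a normal test. Tested on simulated data, it called 94% of 200 regions given a difference of 1 log2 unit among 1798, and 4.57% of its calls were false. These rates cannot be carried over to the members, whose genes were chosen by the value that is subtracted. Other software was scipy 1.17.1, pandas 2.3.3, numpy 2.4.6 and Python 3.11.15. Alternatives were other thresholds, a minimum mean of 100, a Wald test on shrunken values, a shift to a median of 0, other sets of members and regions, and summed SEs.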

Additional observations from a re-analysis of the deposited data

How the results depend on the processing

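The count of raised members ranged from 18 to 21 over all alternatives, including the older symbol ZNF724P, which was added after seeing the data, and the count of lowered members was 0 in each. The median of members ranged from 0.48 to 0.72, and shifting all genes to a median of 0 moved it by 0.03. The raised member regions numbered 1 in place of 2 at an adjusted p under 0.01 and in both Wald tests. For the co-repressor list, 1 of the 2 raised genes passed at 0.01, and both Wald tests gave 0 raised and 0 lowered. The differences between region and gene numbered 0 in place of 2 at 0.01 and with the SEs summed. A Wald test on shrunken values makes fewer calls by construction, with 390 genes raised and 826 lowered, against 929 and 1595 as deposited. No region with a merged name held a member. No paired analysis was possible because the tables hold no value per library, and libraries could not be left out for the same reason. The SEs of scarce members reach 0.55.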
